A study of Homo sapiens with 16 samples.

Results

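The response of NCI-H1048 cells to AU-15330 was set against the response of NCI-H929 cells. Within each line the log2 difference between AU-15330 and DMSO was taken for every gene, called its effect here, and the NCI-H929 effect was subtracted from the NCI-H1048 effect. A positive difference therefore belongs to a gene that went up more, or down less, in NCI-H1048. Below, a gene called higher or lower is so in this difference of effects, unless a level is named. Genes entered when the mean of their 4 libraries was at least 1 in both lines, which held for 11949 of the 35606 genes in the table. Another 1742 genes reached that level in NCI-H1048 alone and 1166 in NCI-H929 alone, and they were not compared. At the limit, TSNAXIP1 was just inside with 1.00 in the lower line, and FUT1 was just outside with 0.998.

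NCI-H1048 derives from a small cell lung cancer (SCLC) that expresses POU2F3, the SCLC-P subtype, whereas NCI-H929 derives from a multiple myeloma. Each line received 1 uM AU-15330 or DMSO, with 2 poly(A) RNA-seq libraries per line and arm, 8 of the 16 libraries of the series. AU-15330 is a PROTAC that recruits an E3 ubiquitin ligase to SMARCA2, SMARCA4 and PBRM1 and so marks these proteins for degradation. The sample titles give 24 h of treatment, the treatment protocol 12 to 24 h and the design text 4 to 12 h, so the duration is uncertain. Each line had its own DMSO libraries, so no control is shared between the effects. Each disease stands here as 1 line, and NCI-H929 was kept in medium with 2-mercaptoethanol, so disease, line and culture cannot be told apart. The labels number the replicates 1 and 2 without naming separate cultures. The p-values therefore measure the spread between libraries, which may be technical.

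Values are the deposited CPM-like expression values, normalized to library size by the authors. Effects and differences were computed on log2(value + 0.5), so that changes of genes with low values come out too small. Estimated depth was 33.34 to 39.18 M reads (M, 1e+06) in NCI-H1048 and 11.96 to 14.05 M in NCI-H929. In the NCI-H929 libraries the scaled values summed to 1.167 M and 1.192 M with DMSO and to 1.005 M and 1.016 M with AU-15330, while every NCI-H1048 library summed to between 0.979 M and 0.995 M. The AU-15330 libraries of NCI-H1048 were the least alike, with an SD of 0.198 for the log2 difference between replicates against 0.122 to 0.141 in the other groups. Markers of the labelled cell types were present in both lines. In NCI-H1048, 6 of 8 tuft cell markers and 5 of 5 epithelial markers had a mean of at least 1, and in NCI-H929 all 10 plasma cell markers did. That mean was also reached by 5 plasma cell markers in NCI-H1048, and by 1 tuft cell and 2 epithelial markers in NCI-H929. Summed plasma cell markers read 197.1 to 204.5 with DMSO in NCI-H1048 and 23482 to 23935 in NCI-H929. Among markers of other cells, the T cell gene CD3E read 42.4 and 41.5 in the DMSO libraries of NCI-H929, where CD3D and CD2 were at 0. Summed fibroblast markers read between 36.7 and 40.8 with DMSO in NCI-H1048, nearly all of it COL1A1, while the summed myeloid markers stayed below 2 in all 8 libraries.

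The mSWI/SNF complexes move and evict nucleosomes, using SMARCA2 or SMARCA4 as the motor, and thereby keep enhancers and promoters open to transcription factors. Tuft cells are chemosensory epithelial cells specified by POU2F3, which works with the coactivators POU2AF2 and POU2AF3. Myeloma cells are malignant plasma cells. They secrete immunoglobulin through a large endoplasmic reticulum and depend on IRF4, PRDM1, XBP1 and the coactivator POU2AF1.

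The 2 lines responded at different scales. The median absolute effect was 0.209 in NCI-H1048 and 0.570 in NCI-H929 over the 11949 genes, and 0.189 and 0.522 over the 8569 genes with a mean of at least 10 in both lines. Each replicate number taken alone gave 0.230 and 0.171 in NCI-H1048, and 0.525 and 0.522 in NCI-H929. Between DMSO replicates of the same line the median absolute log2 difference was 0.0765 and 0.0715. With limma and Benjamini-Hochberg adjustment at 0.05, 2241 genes rose in NCI-H1048 (18.8%) and 1840 fell (15.4%), against 4494 that rose (37.6%) and 4468 that fell (37.4%) in NCI-H929. In either direction, 34.2% of genes passed in NCI-H1048 and 75.0% in NCI-H929. Counts of list members that rose or fell within a line are to be read against these shares for that line and direction. Changes of at least 2-fold numbered 314 in NCI-H1048 (2.63%), of which 237 were down, and 3155 in NCI-H929 (26.4%), of which 1487 were down. Depth differed between the lines, and its part in these counts was not tested. The calls in NCI-H1048 leaned on its first DMSO library: without it, 1097 genes rose and 1024 fell, and without the second DMSO library the counts were 1429 and 1314.

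The difference itself passed in 7892 genes (66.0%): it was higher in NCI-H1048 for 4081 genes (34.2%) and lower for 3811 (31.9%), the shares against which the counts for gene lists are to be read. At 2-fold or more, 1510 genes were higher (12.6%) and 1720 lower (14.4%). Scaling each library to its total instead moved the median difference over all genes from -0.0020 to -0.22, with 3034 genes higher and 4945 lower. Higher genes thus made up 51.7% of the calls as deposited and 38.0% by total. Since entry used the mean of both arms, 347 genes with a DMSO mean below 1 in NCI-H929 entered through AU-15330, with 266 of them lower and none higher, and 109 entered through DMSO, with 53 higher and none lower. Genes passing in both lines numbered 974 up in both (8.15%), 897 down in both (7.51%), 800 up in NCI-H1048 and down in NCI-H929 (6.7%), and 591 in the opposite sense (4.95%). Without the first DMSO library of NCI-H1048 these 4 counts were 541, 532, 332 and 296. Across the 11949 genes, which are not independent replicates, the effects of the lines had a Pearson r of 0.12 and a Spearman rho of 0.11.

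**Figure D1:**
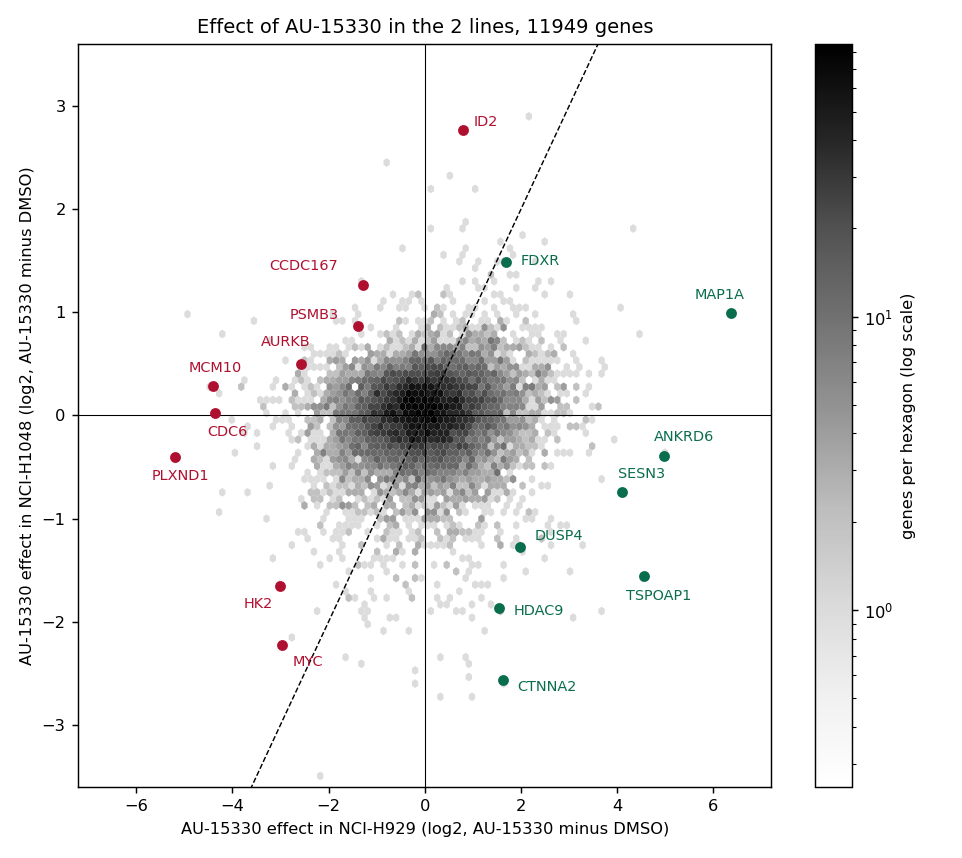
AU-15330 effect (log2, AU-15330 minus DMSO) of 11949 genes in NCI-H929 on the x axis and in NCI-H1048 on the y axis; shading gives the number of genes per hexagon on a log scale, the dashed line marks equal effects, and labelled genes have a positive (red) or negative (green) difference. The axes have different scales: 95% of NCI-H1048 genes lay below 0.54 and 95% of NCI-H929 genes below 1.63.

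The difference did not pass for the transcripts of the 3 degraded proteins. SMARCA4, an ATPase of the complex, read 409.8 and 380.2 with DMSO and 402 and 365 with AU-15330 in NCI-H1048, and 282 and 307 with DMSO and 269.9 and 264 with AU-15330 in NCI-H929. The difference was 0.095 ± 0.10 (SE, adjusted p = 0.42), with a 95% interval from -0.12 to 0.31. The arms overlapped in NCI-H1048, and in NCI-H929 the AU-15330 libraries lay just below the DMSO libraries. SMARCA2, the alternative ATPase, read 103 and 105 with DMSO and 99.9 and 106 with AU-15330 in NCI-H1048, and 202 and 212 with DMSO and 211 and 209.7 with AU-15330 in NCI-H929, a difference of -0.037 ± 0.090 (SE, adjusted p = 0.73) with an interval from -0.23 to 0.16. PBRM1, the bromodomain subunit of PBAF, had a difference of -0.26 ± 0.12 (SE, adjusted p = 0.077), which did not pass here but passed under 6 of 22 alternative settings. Of the 27 tested mSWI/SNF subunits, the difference of effects was higher for 4 and lower for 10, against 34.2% and 31.9% of all genes. With total-count scaling it was lower for 17. SMARCD3, a subunit variable between tissues, went from 3.42 and 3.75 to 20.5 and 20.0 in NCI-H929 and from 34.7 and 32.4 to 46.3 and 41.1 in NCI-H1048, a difference of -1.97 ± 0.15 (SE). ACTL6A, the actin-like subunit of dividing cells, fell in NCI-H929 from 75.4 and 75.5 to 34.0 and 33.6 and had a difference of 1.35 ± 0.11. BICRAL, which defines the non-canonical complex, rose in both lines, by 1.18 in NCI-H1048 and 1.61 in NCI-H929.

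The lineage factors could only be read in the line that makes them. POU2F3 went from 600.0 and 534 with DMSO to 35.5 and 33.1 with AU-15330 in NCI-H1048, and was at or below 0.229 in NCI-H929. POU2AF3 went from 252 and 253 to 27.3 and 26.9 and POU2AF2 from 20.1 and 19.4 to 3.57 and 2.603 in the same libraries. All 3 were therefore outside the comparison, and no test was run on them. In NCI-H929, PRDM1 went from 641 and 646 to 514 and 517 and POU2F2 from 48.7 and 52.3 to 35.8 and 40.3, again without a test. POU2F1, the ubiquitous member of the family, was tested and had a difference of 0.11 ± 0.11 (SE, adjusted p = 0.41).

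MYC, the growth-promoting transcription factor, fell in both lines. MYC read 189 and 177 with DMSO and 41.3 and 36.4 with AU-15330 in NCI-H1048, and 299.8 and 317 with DMSO and 39.4 and 38.2 with AU-15330 in NCI-H929. Levels started higher in NCI-H929 and ended close to those of NCI-H1048, with no overlap between arms in either line. The effects were -2.22 ± 0.077 and -2.97 ± 0.077 (SE), and their difference was 0.75 ± 0.11 (SE, adjusted p = 5.6e-05). Over the alternatives it ranged from 0.29 to 0.84, the lowest with quantile normalization. IRF4 read 1834 and 1835 with DMSO and 274 and 278 with AU-15330 in NCI-H929, while in NCI-H1048 it lay near the limit of 1, at 1.52 and 1.67 and then 1.05 and 0.932. The difference of IRF4 was 2.24. With a mean of 0.991 with AU-15330 in NCI-H1048, IRF4 reached the limit there only through the DMSO libraries, so no test is given for it. POU2AF1 fell in NCI-H929 from 613 and 585 to 141 and 146 and read 9.46 and 9.62, then 11.7 and 8.49, in NCI-H1048, where the arms overlapped; the difference was 2.12 ± 0.16 (SE, adjusted p = 1.8e-07).

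Among the partners of MYC, the repressive MAX dimerizers moved apart. MXD4 rose in both lines but more in NCI-H929, with a difference of -0.998 ± 0.10 (SE). MXI1 rose in NCI-H929 from 60.6 and 63.0 to 96.4 and 96.7 and fell in NCI-H1048 from 50.7 and 58.9 to 40.0 and 42.1, a difference of -1.05 ± 0.12. MXD3 showed the reverse order, with 56.0 and 49.5 and then 91.6 and 81.1 in NCI-H1048, and a difference of 0.95 ± 0.15. Over the 11 tested genes of the MYC-MAX network, 4 were higher and 4 lower.

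Ribosome biogenesis, the making of ribosomal RNA and its assembly with proteins in the nucleolus, went down in both lines and further in NCI-H929. Of 38 genes on this list, 37 fell in NCI-H929 and 28 in NCI-H1048, against 37.4% and 15.4% of all genes. The difference was higher in NCI-H1048 for 36 of them, against 34.2% of all genes, with a median of 1.189 against -0.0020 over all genes. IMP4 alone was lower (-0.40), and the Pol I factor UBTF did not pass. NOLC1, a nucleolar chaperone of snoRNPs, read 184 and 190.0 with DMSO and 101 and 106 with AU-15330 in NCI-H1048, and 542 and 560.1 with DMSO and 97.5 and 101 with AU-15330 in NCI-H929. All 4 AU-15330 libraries ended at similar values, from a higher start in NCI-H929. The difference was 1.62 ± 0.087 (SE, adjusted p = 9.4e-09).

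NOP56, a core protein of box C/D snoRNPs, read 223 and 232 with DMSO and 178 and 176 with AU-15330 in NCI-H1048, and 403 and 425 with DMSO and 93.6 and 88.7 with AU-15330 in NCI-H929, a difference of 1.82 ± 0.089 (SE). NCL, which encodes nucleolin, dropped from 1932 and 2034 to 525.96 and 532 in NCI-H929 and from 972 and 985 to 839 and 791 in NCI-H1048, a difference of 1.64 ± 0.086. In both genes the arms of each line were apart. The pseudouridine synthase DKC1 differed by 1.64 ± 0.085.

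Ribosomal proteins moved less, and their counts changed with the scaling. Among 46 genes, 39 fell in NCI-H929 and 16 rose in NCI-H1048, and the difference was higher for 44, with a median of 0.55. RPS19 was the exception (-0.41), having risen by 0.63 in NCI-H929, and RPL12 did not pass. RPL35 read 628 and 684 with DMSO and 706 and 656 with AU-15330 in NCI-H1048, and 561 and 566 with DMSO and 324 and 332 with AU-15330 in NCI-H929, a difference of 0.84 ± 0.091 (SE, adjusted p = 4.2e-06). With total-count scaling 29 were higher, with quantile normalization 14, and the 16 that rose in NCI-H1048 counted 1 without its first DMSO library and 10 or 9 without the first or second AU-15330 library of NCI-H929. Many of these genes have processed pseudogenes with near-identical sequence, so their estimated counts are uncertain.

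Nucleotide and one-carbon synthesis, which supplies precursors of RNA and DNA, held 28 genes, of which 26 fell in NCI-H929 and 9 in NCI-H1048. The difference was higher for 26, with a median of 1.08, lower for GMPS alone (-0.35), and did not pass for PSPH. Ribonucleotide reductase subunit RRM2 read 283 and 287 with DMSO and 336 and 337 with AU-15330 in NCI-H1048, and 731 and 727 with DMSO and 51.6 and 51.4 with AU-15330 in NCI-H929. It fell steeply in NCI-H929 and rose slightly in NCI-H1048, with no overlap between arms. The difference was 4.05 ± 0.081 (SE, adjusted p = 7.6e-12). Thymidylate synthase TYMS read 158 and 157 with DMSO and 207 and 196 with AU-15330 in NCI-H1048, and 158 and 170.0 with DMSO and 17.2 and 20.7 with AU-15330 in NCI-H929, a difference of 3.44 ± 0.12 (SE, adjusted p = 4.7e-10). CTPS1, which makes CTP, went from 206 and 208 to 32.2 and 28.1 in NCI-H929 against 121 and 118 to 107 and 101 in NCI-H1048.

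Polyamine synthesis showed the same order among its enzymes. ODC1, the entry enzyme, fell in both lines, with effects of -0.61 in NCI-H1048 and -1.74 in NCI-H929, a difference of 1.13 ± 0.092 (SE, adjusted p = 3.1e-07). Spermidine synthase SRM went from 279 and 298 to 58.5 and 53.4 in NCI-H929 and from 38.6 and 36.7 to 30.2 and 24.9 in NCI-H1048. Of the 12 genes, the difference was higher for 8 and lower for 3. The lower ones were OAZ2, an inhibitor of ODC1, and the catabolic enzymes SAT1 and PAOX. OAZ1, another inhibitor of ODC1, was higher, with a difference of 1.09 and an effect of -1.05 in NCI-H929.

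DNA replication genes had the largest median difference of the 34 lists with tested genes. All 33 fell in NCI-H929 and all 33 had a higher difference in NCI-H1048, where 6 rose, 2 fell and 25 did not pass. The median difference was 2.41, with members from 1.09 to 4.69. CDC6, which loads the MCM helicase at origins (GRCh38 chromosome 17, 40287879-40304657, plus strand), read 76.9 and 84.2 with DMSO and 79.2 and 84.4 with AU-15330 in NCI-H1048, and 145 and 153 with DMSO and 6.17 and 7.36 with AU-15330 in NCI-H929. The NCI-H1048 arms overlapped, while NCI-H929 lost all but a small share. The difference was 4.39 ± 0.13 (SE, adjusted p = 2.0e-10).

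UHRF1, which recruits DNMT1 to newly copied DNA, read 144 and 135 with DMSO and 133 and 134 with AU-15330 in NCI-H1048, and 118 and 127 with DMSO and 6.50 and 7.72 with AU-15330 in NCI-H929. As with CDC6, the arms of NCI-H1048 lay side by side and those of NCI-H929 far apart, for a difference of 3.96 ± 0.12 (SE, adjusted p = 2.4e-10). MCM10, an initiation factor, read 69.6 and 71.4 with DMSO and 81.8 and 89.9 with AU-15330 in NCI-H1048, and 84.7 and 86.3 with DMSO and 2.86 and 4.36 with AU-15330 in NCI-H929. Its difference of 4.69 ± 0.19 (SE, adjusted p = 1.2e-09) was the second highest among genes with a mean of at least 10 in each line. The helicase subunit MCM4 read 339.5 and 344 with DMSO and 350.3 and 361 with AU-15330 in NCI-H1048, and 418 and 421 with DMSO and 40.9 and 42.9 with AU-15330 in NCI-H929, a difference of 3.37 ± 0.084 (SE, adjusted p = 4.8e-11). FEN1, which trims Okazaki fragments, differed by 3.18 ± 0.11 (SE), and CDC45, a partner of the MCM helicase, by 4.14 ± 0.14. EXO1, a repair exonuclease, and PKMYT1, a kinase that restrains CDK1, were not on the list but were among the 8 highest, with 4.12 ± 0.16 and 3.58 ± 0.19; PKMYT1 shares exonic sequence with PAQR4 and KREMEN2. The count of 6 replication genes that rose in NCI-H1048 was 2 without its first DMSO library.

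The promoters of CDC6 and UHRF1 are shown because an E2F-type motif lies in each. E2F factors drive genes of the S phase. The motif was searched as TTTGGCGC or TTTCCCGC on both strands, in 250 bases before and 50 after the RefSeq start, and was chosen after the values were seen. It was found in 15 of 30 DNA replication promoters (50%) and in 3.80% of all 9469 tested genes with a promoter in the RefSeq table (GRCh38.p14). Capitals mark the match. In CDC6 (chr17:40287629-40287928, plus strand) it begins at the eighth transcribed base, and in UHRF1 (chr19:4909251-4909550, plus strand) the reverse complement begins 14 bases before the start.
CDC6: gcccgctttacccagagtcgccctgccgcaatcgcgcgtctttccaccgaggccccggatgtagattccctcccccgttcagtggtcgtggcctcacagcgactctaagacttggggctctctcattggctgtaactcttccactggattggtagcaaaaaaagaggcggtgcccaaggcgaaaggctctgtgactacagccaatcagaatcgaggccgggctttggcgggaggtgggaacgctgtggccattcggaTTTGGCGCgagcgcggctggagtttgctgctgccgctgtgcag
UHRF1: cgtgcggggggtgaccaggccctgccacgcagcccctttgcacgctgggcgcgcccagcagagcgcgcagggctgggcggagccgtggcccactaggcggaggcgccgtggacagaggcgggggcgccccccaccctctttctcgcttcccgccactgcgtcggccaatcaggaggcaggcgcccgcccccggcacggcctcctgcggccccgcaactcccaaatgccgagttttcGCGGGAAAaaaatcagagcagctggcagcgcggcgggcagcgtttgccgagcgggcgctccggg
The match describes the sequence alone and carries no statement on binding.

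Mitotic genes moved in opposite senses in the lines. All 30 fell in NCI-H929, 25 rose in NCI-H1048 with the other 5 not passing, and all 30 had a higher difference, with a median of 1.71. Without the first DMSO library of NCI-H1048, 18 rose. AURKB, a kinase of chromosome segregation, read 69.3 and 64.9 with DMSO and 105 and 85.0 with AU-15330 in NCI-H1048, and 48.1 and 47.6 with DMSO and 7.59 and 7.66 with AU-15330 in NCI-H929. Every AU-15330 library was above both DMSO libraries in NCI-H1048 and below them in NCI-H929. The difference was 3.07 ± 0.14 (SE, adjusted p = 2.9e-09). Cyclin A2 (CCNA2) went from 211 and 223 to 268 and 274 in NCI-H1048 and from 93.3 and 90.01 to 23.3 and 24.3 in NCI-H929, and the ubiquitin-conjugating enzyme UBE2C from 154 and 168 to 243 and 223 and from 117 and 119 to 33.8 and 34.7. KIF23, a kinesin of cytokinesis, differed by 2.18 ± 0.099 (SE).

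Among 16 cyclins, CDKs and their inhibitors, 10 were higher and 5 lower. CCNE2, a cyclin of the G1/S step, read 101 and 111 with DMSO and 86.3 and 107 with AU-15330 in NCI-H1048, and 28.6 and 25.7 with DMSO and 1.86 and 2.10 with AU-15330 in NCI-H929, with overlapping arms in NCI-H1048 and a difference of 3.34 ± 0.16 (SE, adjusted p = 4.3e-09). CDK2 fell in NCI-H929 from 47.2 and 48.5 to 10.3 and 12.6 and differed by 2.08 ± 0.12. CDKN1B, which encodes the inhibitor p27, rose in both lines, to 205 and 214 from 65.6 and 66.6 in NCI-H929 and to 108 and 113 from 84.4 and 87.5 in NCI-H1048, a difference of -1.30 ± 0.093. The other 4 with a lower difference were CCND1, CDKN2C, RB1 and RBL2.

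The proteasome, which degrades ubiquitinated proteins, split the lines as a whole. All 27 subunit genes fell in NCI-H929, 23 rose in NCI-H1048, and all 27 had a higher difference, with a median of 1.20 and a range from 0.59 to 2.25. PSMB3, a subunit of the catalytic core, read 72.9 and 78.4 with DMSO and 139.6 and 137 with AU-15330 in NCI-H1048, and 99.4 and 96.9 with DMSO and 41.7 and 33.2 with AU-15330 in NCI-H929. It went up in 1 line and down in the other without overlap, and its difference was 2.25 ± 0.13 (SE, adjusted p = 2.1e-08). PSMA7 went from 202 and 222 to 278 and 268 in NCI-H1048 and from 238 and 242 to 115 and 118 in NCI-H929. PSMD14, the deubiquitinase of the lid, differed by 1.52 ± 0.10 (SE), and PSMA5 by 1.68 ± 0.10. Without the first DMSO library of NCI-H1048, 14 of the 27 rose.

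Aminoacyl tRNA synthetases, which charge tRNAs, all fell in NCI-H929 (20 of 20), and all 20 had a higher difference, with a median of 1.09. In NCI-H1048, 3 rose and 4 fell; the 4 no longer passed without the first or without the second DMSO library of that line. GARS1 read 164 and 173 with DMSO and 186 and 173 with AU-15330 in NCI-H1048, and 408 and 435 with DMSO and 157 and 158 with AU-15330 in NCI-H929, with overlap in NCI-H1048 and a difference of 1.51 ± 0.093 (SE, adjusted p = 2.8e-08).

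The nuclear genes of the respiratory chain numbered 31: 23 fell and 4 rose in NCI-H929, and 17 rose in NCI-H1048, a count that was 4 without its first DMSO library and 26 without its second AU-15330 library. The difference was higher for 24 and had a median of 0.69. ATP5MC1, a ring subunit of ATP synthase, went from 132 and 138 to 37.6 and 35.9 in NCI-H929 and read 57.4 and 58.4, then 67.6 and 60.8, in NCI-H1048. CYC1, cytochrome c1, differed by 1.38 ± 0.12 (SE). The 13 transcripts of the mitochondrial genome had a median difference of 0.031.

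Sterol synthesis rose in NCI-H1048, where 17 of 22 genes passed upward and the other 5 did not pass. In NCI-H929, 13 fell and 6 rose. The difference was higher for 16 and lower for LSS, TM7SF2 and SC5D, with a median of 0.89. FDPS, which makes farnesyl diphosphate, read 299 and 315 with DMSO and 536 and 478 with AU-15330 in NCI-H1048, and 259 and 269.8 with DMSO and 186 and 183 with AU-15330 in NCI-H929, in opposite directions without overlap and with a difference of 1.24 ± 0.096 (SE, adjusted p = 2.0e-07). DHCR7, a reductase of the last steps, went from 70.6 and 71.2 to 111 and 106 in NCI-H1048 and from 56.0 and 64.3 to 30.3 and 30.0 in NCI-H929.

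Glycolysis and the hypoxia response were mixed: of 26 genes, 19 fell in NCI-H929 and 8 in NCI-H1048, and 16 were higher and 7 lower in the difference. Hexokinase HK2, which commits glucose to the pathway, fell in both lines, from 31.3 and 31.4 to 9.44 and 9.75 in NCI-H1048 and from 181 and 178 to 22.9 and 20.7 in NCI-H929, a difference of 1.36 ± 0.12 (SE, adjusted p = 8.0e-07). LDHA, lactate dehydrogenase, fell in NCI-H929 from 1334 and 1415 to 352 and 347 and read 539.7 and 574, then 674 and 634, in NCI-H1048. PDK1, which restrains pyruvate dehydrogenase, differed by 1.68 ± 0.11 (SE).

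The unfolded protein response, which adjusts folding capacity in the endoplasmic reticulum, fell in NCI-H929 for 21 of 25 genes. In NCI-H1048, 5 fell and 4 rose. The difference was higher for 21, with a median of 1.29, and lower for the transcription factor XBP1, the sensor kinase EIF2AK3 and the degradation factor SEL1L. HERPUD1, a component of the degradation machinery of the endoplasmic reticulum, read 18.4 and 19.7 with DMSO and 20.0 and 19.2 with AU-15330 in NCI-H1048, and 752 and 755 with DMSO and 151 and 158 with AU-15330 in NCI-H929. Its arms overlapped in NCI-H1048 and lay far apart in NCI-H929, for a difference of 2.33 ± 0.099 (SE, adjusted p = 1.6e-09). The translocon subunit SEC61A1 went from 992 and 1014 to 314 and 338 in NCI-H929 and from 189.9 and 190.0 to 236 and 225 in NCI-H1048. PDIA4, a disulfide isomerase, differed by 1.74 ± 0.080 (SE).

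Targets of ATF4, the factor of the amino acid response, were higher for 13 of 21 and lower for 3: DDIT4, ATF3 and CTH. DDIT4, an inhibitor of mTORC1, read 77.9 and 75.2 with DMSO and 25.1 and 23.2 with AU-15330 in NCI-H1048, and 201 and 194 with DMSO and 440.0 and 441 with AU-15330 in NCI-H929, in opposite directions without overlap, with a difference of -2.80 ± 0.095 (SE, adjusted p = 3.8e-10). The amino acid transporter SLC1A5 fell in both lines, with effects of -0.89 and -1.84.

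Of 13 tested plasma cell identity genes, 11 fell in NCI-H929. SDC1, the surface marker CD138, read 118 and 121 with DMSO and 85.5 and 81.9 with AU-15330 in NCI-H1048, and 585 and 597 with DMSO and 119 and 124 with AU-15330 in NCI-H929, and differed by 1.76 ± 0.087 (SE, adjusted p = 4.9e-09). PIM2, a survival kinase, went from 1411 and 1403 to 383 and 383 in NCI-H929 and from 13.4 and 13.8 to 19.4 and 17.2 in NCI-H1048. The 2 that rose in NCI-H929 were XBP1 and ITGA4. Of the 10 plasma cell markers used to check the label, the summed value in NCI-H929 went from 23482 and 23935 to 12297 and 12967. JCHAIN carried most of that sum, with means of 14981 with DMSO and 6597 with AU-15330. XBP1 rose from a mean of 2752 to 4314, while the other markers fell.

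Of 27 tuft cell identity genes in the table, 5 reached the level in both lines, and all 5 fell in NCI-H1048. AVIL, the actin-binding protein advillin, read 104 and 99.3 with DMSO and 14.8 and 14.9 with AU-15330 in NCI-H1048. In NCI-H929 it read 1.17 and 0.715 with DMSO and 1.86 and 2.80 with AU-15330. The difference of AVIL was -3.70 and ranged from -4.04 to -3.40 over the alternatives. It reached the required mean of 1 in NCI-H929 only through the AU-15330 libraries, so no test is given for it, though the list counts include it. PLCG2, a phospholipase shared by tuft and B lineage cells, went from 49.0 and 45.0 to 32.7 and 34.6 in NCI-H1048 and from 209 and 182 to 345 and 344 in NCI-H929, in opposite directions without overlap. VAV1 and IGF1R were also lower, with differences of -1.31 and -1.23, whereas MYB fell in both lines and was higher by 1.84. In NCI-H929, 4 of the 5 rose, or 2 without its first AU-15330 library.

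**Figure D2:**
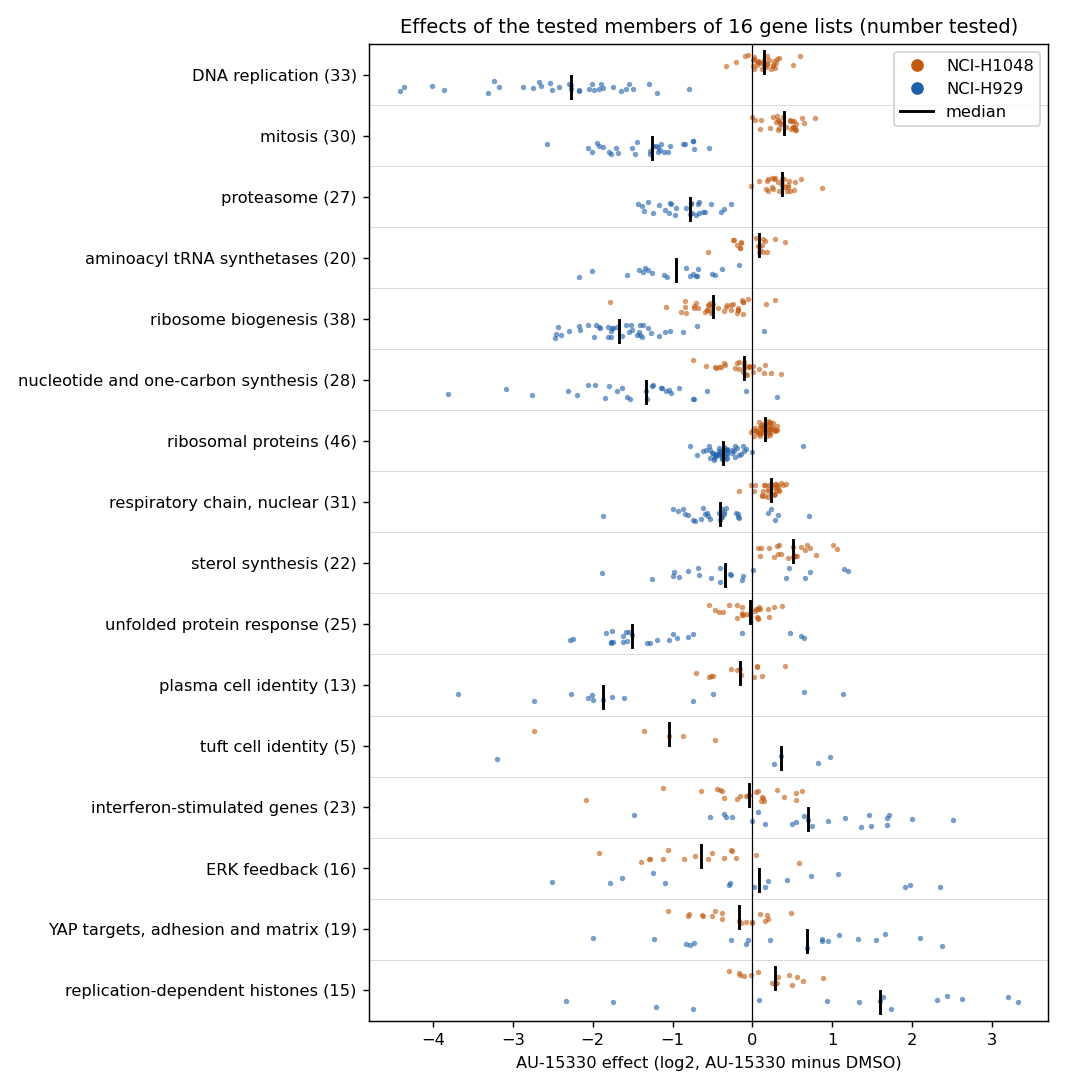
AU-15330 effect (log2, x axis) of each tested member of 16 gene lists, 1 dot per gene and line, with a black tick at each line's median. All 27 proteasome, 30 mitosis and 33 DNA replication genes lie below 0 in NCI-H929, while their NCI-H1048 medians are 0.37, 0.40 and 0.14.

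Interferon-stimulated genes ran the other way. Of 23 tested, 15 rose in NCI-H929 and 3 in NCI-H1048, and the difference was lower for 15, against 31.9% of all genes, with a median of -1.13. PARP14, an ADP-ribosyltransferase, read 119 and 115 with DMSO and 83.6 and 101 with AU-15330 in NCI-H1048, and 11.2 and 11.6 with DMSO and 66.5 and 68.1 with AU-15330 in NCI-H929. The NCI-H929 arms were far apart and the NCI-H1048 arms closer, and the difference was -2.87 ± 0.13 (SE, adjusted p = 2.2e-09). SAMD9, an antiviral restriction factor, fell in NCI-H1048 from 41.6 and 46.0 to 16.4 and 24.2 and rose in NCI-H929 from 91.9 and 100.3 to 159 and 152. BST2, which tethers budding virions, fell in both lines, from 5.65 and 6.72 to 1.25 and 0.904 in NCI-H1048 and from 204 and 216 to 166 and 162 in NCI-H929, a difference of -1.73 ± 0.17 (SE, adjusted p = 1.7e-06). Its effect in NCI-H929 was -0.36 (limma, adjusted p = 0.017), which did not pass under 6 of 21 alternatives and was -0.14 with total-count scaling and -0.13 with quantile normalization. The count that fell in NCI-H1048 was 7, or 3 without its first DMSO library.

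The promoters of PARP14 and BST2 are shown for an IRF-type repeat, the element read by interferon regulatory factors. That of HDAC9, a class IIa histone deacetylase that fell in NCI-H1048 and rose in NCI-H929, is shown for an octamer, the element read by POU2F factors. The repeat was searched as GAAA, any 2 bases and GAAA, and the octamer as ATGCAAAT, on both strands. The repeat was in 13 of 21 promoters of interferon-stimulated genes (61.9%) and in 2.64% of all 9469, and the octamer in 1.35% of all. Among genes that fell in NCI-H1048 and rose in NCI-H929, 7 of 475 promoters (1.47%) held the octamer, near the share of all. It was in 0 of 5 promoters of tuft cell identity genes. These matches describe the sequence alone and carry no statement on binding. Capitals mark the matches: in PARP14 (chr3:122680589-122680888, plus strand) from 29 bases before the start, in BST2 (chr19:17405581-17405880, minus strand) from 130 bases before it as 2 overlapping matches, and in HDAC9 (chr7:18495499-18495798, plus strand) as the octamer from 59 bases before it.
PARP14: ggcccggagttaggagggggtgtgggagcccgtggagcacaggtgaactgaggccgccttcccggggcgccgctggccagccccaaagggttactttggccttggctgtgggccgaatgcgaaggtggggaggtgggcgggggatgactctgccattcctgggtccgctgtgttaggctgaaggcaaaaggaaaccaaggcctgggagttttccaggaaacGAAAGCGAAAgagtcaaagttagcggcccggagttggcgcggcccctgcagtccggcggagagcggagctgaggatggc
BST2: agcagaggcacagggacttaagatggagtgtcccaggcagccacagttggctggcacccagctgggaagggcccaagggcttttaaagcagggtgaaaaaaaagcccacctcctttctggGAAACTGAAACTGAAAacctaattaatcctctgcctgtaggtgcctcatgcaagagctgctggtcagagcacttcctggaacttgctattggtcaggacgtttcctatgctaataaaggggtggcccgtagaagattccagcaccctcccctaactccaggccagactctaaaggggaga
HDAC9: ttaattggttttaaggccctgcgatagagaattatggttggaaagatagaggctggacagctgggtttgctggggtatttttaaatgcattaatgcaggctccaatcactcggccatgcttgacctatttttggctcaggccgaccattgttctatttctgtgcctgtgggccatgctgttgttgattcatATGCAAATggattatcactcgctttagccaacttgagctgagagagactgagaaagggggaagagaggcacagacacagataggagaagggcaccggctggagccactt

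Of 16 genes listed under ERK feedback, not all of them inhibitors, the difference was lower for 11 and higher for DUSP2 and DUSP7. The count that fell in NCI-H1048 was 12, against 15.4% of all genes, or 7 without its second DMSO library. In NCI-H929 6 of the 16 rose, near the 37.6% of all genes. DUSP4, a nuclear phosphatase of ERK, read 21.7 and 20.6 with DMSO and 8.81 and 8.08 with AU-15330 in NCI-H1048, and 18.1 and 18.9 with DMSO and 75.5 and 72.9 with AU-15330 in NCI-H929. From nearly equal DMSO levels the lines went apart without overlap, and the difference was -3.25 ± 0.14 (SE, adjusted p = 1.6e-09). DUSP6, the cytoplasmic phosphatase of ERK, rose in both lines, from 162 and 160.5 to 807 and 837 in NCI-H929 and from 5.67 and 6.84 to 9.44 and 9.75 in NCI-H1048, a difference of -1.76 ± 0.12 (SE). SPRY4 differed by -1.80 ± 0.20.

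AP-1 and immediate early genes were lower for 11 of 21 and higher for 4 (JUN, KLF6, MAFG and MAFK). EGR1, an immediate early zinc finger factor, read 239.9 and 199.5 with DMSO and 123 and 106 with AU-15330 in NCI-H1048, and 9.86 and 10.4 with DMSO and 46.5 and 45.5 with AU-15330 in NCI-H929, in opposite directions without overlap, with a difference of -3.07 ± 0.14 (SE, adjusted p = 2.4e-09). JUND went from 55.6 and 55.4 to 41.3 and 33.4 in NCI-H1048 and from 60.4 and 56.3 to 122 and 145 in NCI-H929. KLF10, an early TGF-beta target, rose in both lines, with a difference of -1.75 ± 0.10 (SE).

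YAP targets, adhesion and matrix genes were lower for 13 of 19 and higher for TEAD1, TEAD4, FN1 and FLNA. In NCI-H1048, 9 fell, or 5 without its first DMSO library, and in NCI-H929 11 rose. The coactivator YAP1 read 82.2 and 79.6 with DMSO and 88.8 and 92.1 with AU-15330 in NCI-H1048, and 6.44 and 4.82 with DMSO and 32.3 and 29.8 with AU-15330 in NCI-H929, a difference of -2.22 ± 0.16 (SE, adjusted p = 1.2e-07). AJUBA, a LIM protein of cell junctions, fell in NCI-H1048 from 57.2 and 53.7 to 26.0 and 26.6 and rose in NCI-H929 from 4.49 and 4.02 to 15.6 and 11.4.

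Replication-dependent histone genes, unlike the replication genes, were lower for 9 of 15 and higher for 4 (H1-4, H2AC20, H4C3 and H4C14), with a median of -1.27. In NCI-H929 10 rose. H4C8 read 2.47 and 3.81 with DMSO and 2.13 and 3.34 with AU-15330 in NCI-H1048, and 26.3 and 27.3 with DMSO and 272 and 274 with AU-15330 in NCI-H929. The difference was -3.49 ± 0.26 (SE, adjusted p = 1.4e-07). H2BC8 rose in both lines, to 99.8 and 112 from 9.86 and 12.3 in NCI-H929, with a difference of -2.65 ± 0.20 (SE). Their mature mRNAs mostly lack poly(A) tails, the libraries were poly(A)-selected, and the copies are nearly identical, so these values are uncertain. In NCI-H1048, 5 rose, or 1 without its first DMSO library.

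The ID genes, inhibitors of basic helix-loop-helix factors and targets of BMP signalling, rose in both lines and more in NCI-H1048. ID2 read 195 and 205 with DMSO and 1319.7 and 1413 with AU-15330 in NCI-H1048, and 15.8 and 17.1 with DMSO and 26.8 and 31.0 with AU-15330 in NCI-H929. The arms were apart in both lines, and further in NCI-H1048. The difference was 1.98 ± 0.11 (SE, adjusted p = 1.6e-08). ID1 differed by 1.00 ± 0.11 (SE) and ID3 by 0.71 ± 0.11. Over the 11 tested genes of the list 5 were higher and 4 lower. SKIL, a corepressor of SMAD proteins, rose in NCI-H929 from 31.6 and 32.5 to 77.4 and 78.4 and did not pass in NCI-H1048.

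The BCL2 family split by member, 8 higher and 7 lower of 16. MCL1, the survival factor of plasma cells, read 344 and 352 with DMSO and 294 and 299.7 with AU-15330 in NCI-H1048, and 2377 and 2417 with DMSO and 4999 and 4972 with AU-15330 in NCI-H929, in opposite directions without overlap, with a difference of -1.28 ± 0.081 (SE, adjusted p = 3.6e-08). BCL2L11, which encodes the death-promoting BIM, did likewise, from 57.1 and 64.3 to 214 and 219 in NCI-H929 and from 62.0 and 57.3 to 39.7 and 41.7 in NCI-H1048. BBC3, which encodes PUMA, rose in NCI-H929 from 3.12 and 3.39 to 14.2 and 15.2 and differed by -2.03 ± 0.22 (SE). Targets of p53 were higher for 8 and lower for 8 of 26, near the shares of all genes, or lower for 13 with total-count scaling. SESN1 rose in NCI-H929 from 19.7 and 20.4 to 109 and 106 and read 16.1 and 17.7, then 17.6 and 19.0, in NCI-H1048. TP53I3 differed by -2.80 ± 0.16.

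The remaining lists had members on both sides, and the counts of Polycomb subunits and of lysosome and autophagy genes lay near the 34.2% and 31.9% of all genes. Polycomb subunits were higher for 10 and lower for 7 of 27; EZH2, the H3K27 methyltransferase, fell in NCI-H929 from 89.9 and 86.3 to 42.6 and 36.8 and differed by 1.15 ± 0.11 (SE), while PHC1 rose there from 1.93 and 2.41 to 33.1 and 33.7 and differed by -3.23 ± 0.14. Lysosome and autophagy genes were higher for 13 and lower for 10 of 32, with CTSB, a cysteine protease, at 1.92 ± 0.081. NF-kB targets were higher for 4 and lower for 4 of 17, where CD83 differed by -1.87 ± 0.30. MHC class I presentation genes were higher for 6 of 17 and lower for HLA-F, with the immunoproteasome activator PSME2 at 1.28 ± 0.13. The list had an IRF-type repeat in 9 of 14 promoters (64.3%). Of 7 tested neuroendocrine genes 2 were higher and 1 lower, and SYP rose in both lines, from 1.70 and 1.47 to 16.5 and 13.7 in NCI-H1048 and from 1.499 and 1.79 to 10.1 and 8.28 in NCI-H929. Of 5 epithelial genes, ST14 was higher (2.70) and KRT8 and CLDN7 were lower (-1.47 and -1.38), the NCI-H929 values of all 3 being at or below 5.09 and those of ST14 and CLDN7 reaching a mean of 1 in 1 arm alone.

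The largest single differences came mostly from the side of NCI-H929. PLXND1, a semaphorin receptor (GRCh38 chromosome 3, 129555214-129606676, minus strand), read 70.5 and 65.0 with DMSO and 51.5 and 51.0 with AU-15330 in NCI-H1048, and 62.3 and 61.3 with DMSO and 1.00 and 1.43 with AU-15330 in NCI-H929. It started alike in the lines and fell to near 1 in NCI-H929. The difference of 4.80 ± 0.17 (SE, adjusted p = 3.9e-10) was the highest among genes with a mean of at least 10 in each line. At the other end, MAP1A, a microtubule-associated protein (chromosome 15, 43510958-43531620, plus strand), read 14.3 and 14.9 with DMSO and 27.6 and 31.4 with AU-15330 in NCI-H1048, and 0.293 and 0.179 with DMSO and 60.3 and 59.9 with AU-15330 in NCI-H929. NCI-H929 started near 0 and ended above NCI-H1048, which rose by 0.99, for a difference of -5.38 that ranged from -6.75 to -4.66 over the alternatives. It reached the required mean in NCI-H929 only through the AU-15330 libraries, so no test is given for it.

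TSPOAP1, a scaffold protein (chromosome 17, 58301228-58328795, minus strand), read 52.7 and 46.8 with DMSO and 17.1 and 15.96 with AU-15330 in NCI-H1048, and 1.07 and 0.179 with DMSO and 24.3 and 23.5 with AU-15330 in NCI-H929. The lines moved in opposite directions without overlap, with a difference of -6.12 that ranged from -7.17 to -5.51. It too reached the required mean in NCI-H929 only through the AU-15330 libraries and is given without a test, and exons of TSPOAP1-AS1 overlap the gene on the other strand. ANKRD6 (chromosome 6, 89433152-89633834, plus strand) went from 1.17 and 1.61 to 58.8 and 58.4 in NCI-H929 and from 31.5 and 33.1 to 25.5 and 23.5 in NCI-H1048, a difference of -5.37 ± 0.18 (SE). SESN3, a stress-inducible regulator of mTORC1, rose in NCI-H929 from 10.7 and 11.9 to 205 and 197 and fell in NCI-H1048 from 46.3 and 46.6 to 24.0 and 31.7, a difference of -4.84 ± 0.16. The same order held for TRIM36 with -3.94 ± 0.16, the mucin-type glycosyltransferase GALNT12 with -3.81 ± 0.14 and AHNAK with -3.603 ± 0.15.

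Genes with a mean of at least 10 in each line also went in opposite directions. Those that rose in NCI-H1048 and fell in NCI-H929 most evenly were CCDC167, ALG5, TUBB2A, GLA, SPDL1 and PSMB3. CCDC167 read 17.9 and 21.1 with DMSO and 50.01 and 45.3 with AU-15330 in NCI-H1048, and 24.5 and 24.8 with DMSO and 9.73 and 9.84 with AU-15330 in NCI-H929, a difference of 2.56 ± 0.15 (SE, adjusted p = 2.1e-08). SPDL1, a kinetochore adaptor of dynein, read 99.3 and 111 with DMSO and 184 and 207 with AU-15330 in NCI-H1048, and 61.5 and 59.8 with DMSO and 20.7 and 24.0 with AU-15330 in NCI-H929, and ALG5, a glucosyltransferase of N-glycan assembly, read 13.0 and 15.9 with DMSO and 29.4 and 28.3 with AU-15330 in NCI-H1048, and 52.5 and 48.6 with DMSO and 19.6 and 18.9 with AU-15330 in NCI-H929. In all 3 the arms were apart in both lines. TUBB2A, a beta-tubulin with a near-identical copy, differed by 2.66 ± 0.16 (SE), and GLA, a lysosomal galactosidase whose exons overlap RPL36A, by 2.03 ± 0.13.

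Those that fell in NCI-H1048 and rose in NCI-H929 were CTNNA2, AASS, TSPOAP1, HDAC9, NREP and DUSP4. HDAC9 read 451 and 469 with DMSO and 111 and 142 with AU-15330 in NCI-H1048, and 11.9 and 12.1 with DMSO and 33.3 and 38.6 with AU-15330 in NCI-H929, a difference of -3.40 ± 0.15 (SE, adjusted p = 2.2e-09). CTNNA2, an alpha-catenin of neurons, read 22.6 and 25.0 with DMSO and 3.46 and 3.75 with AU-15330 in NCI-H1048, and 7.03 and 8.75 with DMSO and 25.5 and 25.2 with AU-15330 in NCI-H929, a difference of -4.20 ± 0.19 (SE, adjusted p = 2.4e-09). The lysine-degrading enzyme AASS differed by -3.18 ± 0.10 (SE) and NREP by -3.56 ± 0.090. For HDAC9 and NREP the NCI-H1048 level with AU-15330 still exceeded the NCI-H929 level, while for CTNNA2 the order of the lines turned over.

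Among genes that moved alike, FDXR, the ferredoxin reductase of mitochondria, read 20.8 and 20.1 with DMSO and 63.3 and 53.9 with AU-15330 in NCI-H1048, and 19.2 and 16.8 with DMSO and 58.5 and 59.1 with AU-15330 in NCI-H929, and its difference was -0.19 ± 0.14 (SE, adjusted p = 0.25), with a 95% interval from -0.50 to 0.12. FBXO6, GALNS and DBP, whose exons overlap those of neighbouring genes, also rose in both, as did PCDH9 and BICRAL. PCDH9 rested on 1 library of NCI-H1048, with 21.2 and 70.1 in its AU-15330 libraries, and its effect of 1.47 was 0.62 without the second. GFOD1, PLXNC1, CD44, HEG1, HK2 and MYC fell most in both. GFOD1 read 26.6 and 23.5 with DMSO and 7.42 and 7.27 with AU-15330 in NCI-H1048, and 48.2 and 48.3 with DMSO and 14.8 and 14.5 with AU-15330 in NCI-H929, a difference of -0.013 ± 0.15 (SE, adjusted p = 0.94). CD44, the hyaluronan receptor, went from 310.2 and 309 to 88.5 and 94.3 in NCI-H1048 and from 1142 and 1154 to 385 and 395 in NCI-H929. The difference of CD44 was -0.20 ± 0.084 (SE, limma, adjusted p = 0.053). That difference passed under 6 of 22 alternatives and ranged from -0.66 to -0.14 over them. Of these 12 genes, the difference passed for MYC, HK2, HEG1 (0.69) and BICRAL (-0.42).

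**Figure D3:**
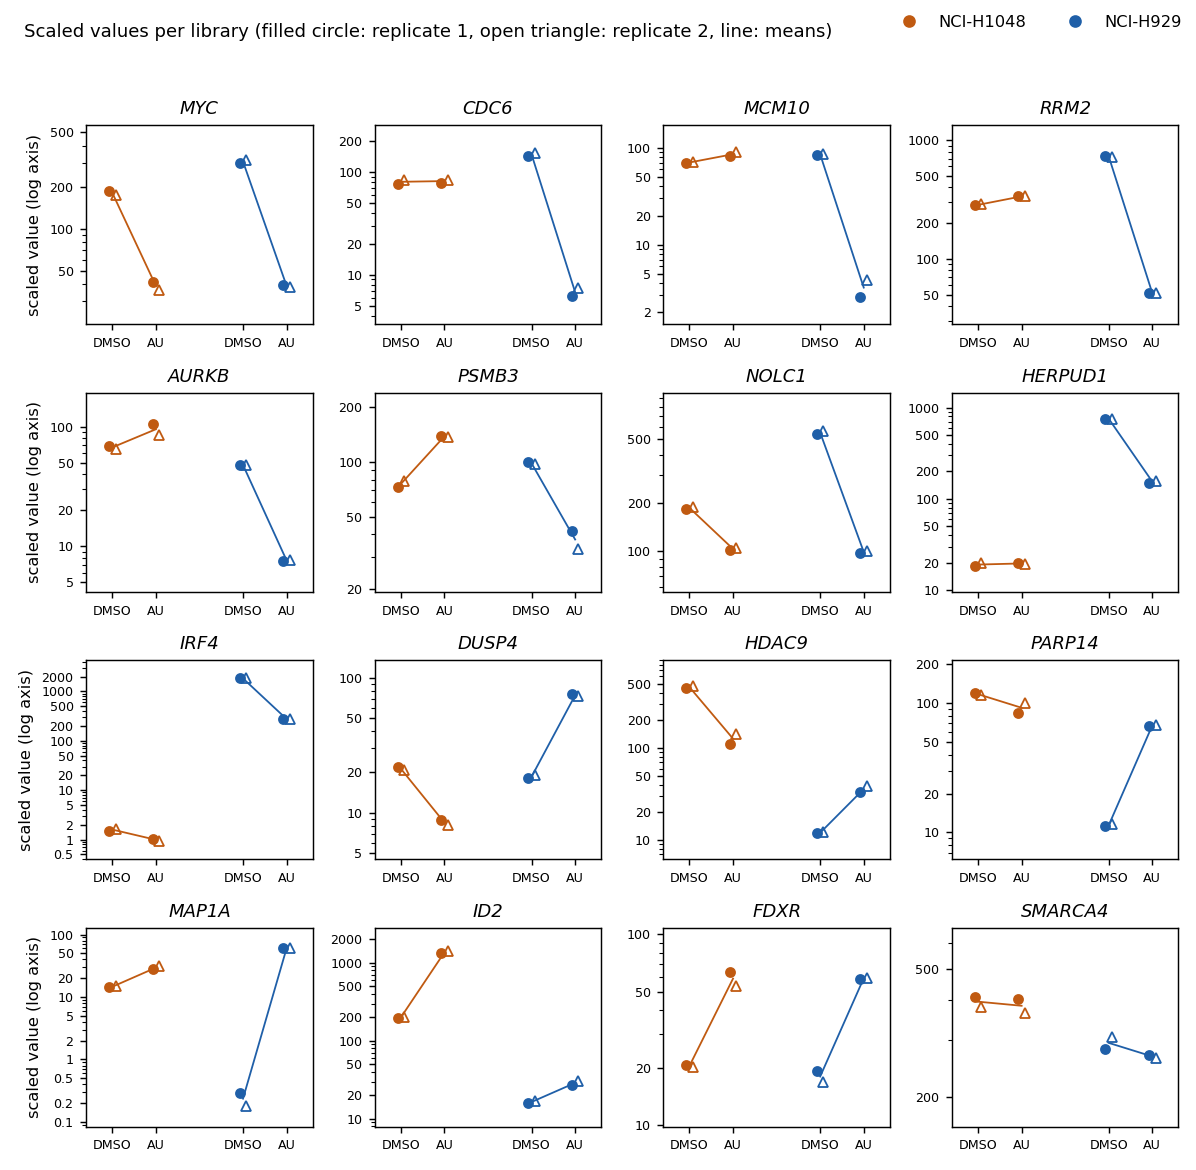
Value per library (CPM-like, as normalized by the authors, log axis) of 16 genes, with filled circles for replicate 1, open triangles for replicate 2 and a line at each group mean. The arms do not overlap in NCI-H929 for any gene shown, least apart for SMARCA4, and they overlap in NCI-H1048 for CDC6, HERPUD1 and SMARCA4.

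Genes were also grouped by their untreated level, with the class taken from the first DMSO replicate and the response from the second replicate of both arms. Genes still entered by the mean of all 4 libraries of a line, so a gene near 0 in untreated NCI-H929 was kept where AU-15330 raised it. The 622 genes at least 8-fold higher in untreated NCI-H1048 had a median effect of -0.062 in that line and 0.78 in NCI-H929, and a median difference of -0.86. For the 251 genes at least 8-fold higher in NCI-H929 the medians were -0.11 in NCI-H1048 and -0.42 in NCI-H929, with a difference of 0.23. The 6982 genes within 2-fold of each other had a median difference of 0.11. In NCI-H929, 33.5% of its own higher genes fell 2-fold or more, against 11.9% of the genes within 2-fold. In NCI-H1048 the corresponding shares were 7.56% and 0.945%. Genes higher in untreated NCI-H929 fell 2-fold or more in NCI-H1048 in 9.16%, so there the falls were not particular to its own higher genes. Of the genes higher in untreated NCI-H1048, 5.14% fell that far in NCI-H929. Swapping the replicates gave median differences of -0.98, 0.22 and 0.075. With entry decided instead by a value of at least 1 in the first DMSO library of each line, an alternative chosen after seeing the data, 508 genes were at least 8-fold higher in NCI-H1048, with medians of -0.077 in that line and 0.55 in NCI-H929 and a median difference of -0.65. The other classes then had median differences of 0.21 and 0.11. No test was run on these classes.

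The other pair of an SCLC-P line and a myeloma line in the series, NCI-H526 and MM1.S, shares no library with this one, and was taken up after the values above were seen. MM1.S was prepared by ribosomal RNA depletion. Of 12060 genes tested there, the difference NCI-H526 minus MM1.S was higher for 39.6% and lower for 31.4%. Of the 3942 genes with a higher difference between NCI-H1048 and NCI-H929 that were tested in both pairs, 78.5% were higher there too and 227 were lower. Of the 3381 lower genes, 63.7% were lower there and 362 higher. Ribosome biogenesis had a median of 1.98 there, DNA replication 1.46, the proteasome 0.98 and the unfolded protein response 0.91. Mitosis had 0.22, with 17 of 30 genes higher and 4 lower, and replication-dependent histones 0.69, with 10 of 14 higher. Lysosome and autophagy had -0.53, with 21 of 31 lower. The differences between the pairs were not tested.

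**Figure D4:**
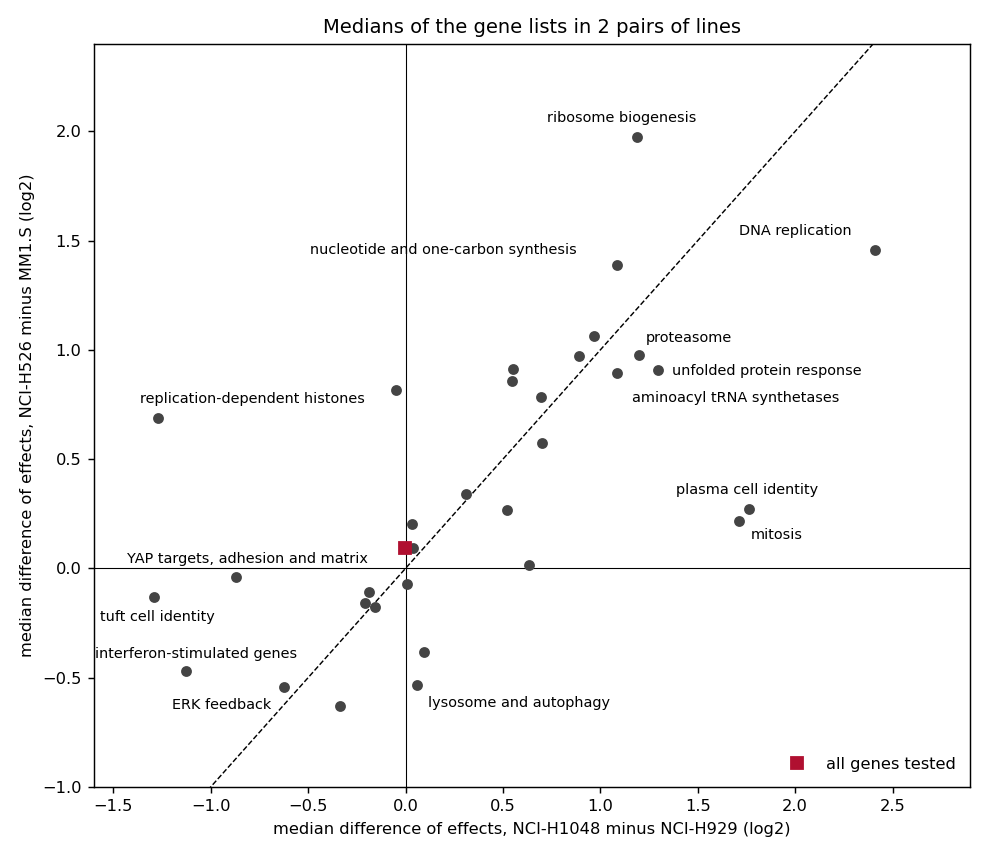
Median difference of AU-15330 effects (log2) per gene list, NCI-H1048 minus NCI-H929 on the x axis and NCI-H526 minus MM1.S on the y axis. Lists with at least 5 genes tested in both pairs are shown. The x values use all members tested in NCI-H1048 and NCI-H929, the y values only those tested in both pairs. The dashed line marks equal values and the red square all genes, 11949 on x and 11059 on y. DNA replication is at 2.41 and 1.46, ribosome biogenesis at 1.189 and 1.98, and histones at -1.27 and 0.69.

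Promoter letters were counted over the directions of the difference as a description. The E-box CACGTG, the element read by MYC-MAX dimers, was in 10.4% of all 9469 promoters. It was in 12.6% of those of genes with a higher difference and in 8.84% of those with a lower one. Among genes that fell in both lines the share was 17.3%. Ribosome biogenesis promoters held it in 11 of 32 (34.4%), lysosome and autophagy promoters in 7 of 22 (31.8%) and MYC-MAX network promoters in 3 of 10 (30%). Ribosomal protein promoters held it in 1 of 36 (2.78%). The E2F-type motif was in 7.15% of promoters of genes at least 2-fold higher and in 1.85% of those at least 2-fold lower. The octamer was in 1.12% of higher and 1.78% of lower genes, and in 7 of 14 replication-dependent histone promoters (50%). None of the 4 letter patterns contains another.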

How the data were processed

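RNA-seq of 8 poly(A) libraries (2 lines, 2 arms, 2 replicates) was used from a table of 16. The authors pseudoaligned reads with kallisto to hg38 and scaled them with edgeR; FastQC and limma are also named in the submitters' processing notes. The deposited values are a signal scaled to an effective library size of 1e+06, whose totals over the 8 libraries were 0.979 to 1.192 M (M, 1e+06). Steps between low values gave estimated reads, of which 78.2 to 80.1% were whole within 0.1 among values of up to 20 steps, so no count model was the main test. Values were taken as log2(value + 0.5) and fitted with limma 3.58.1 (limma-trend, R 4.3.3) with a mean per group, two-sided, with Benjamini-Hochberg adjustment over 11949 genes and a threshold of 0.05. Symbols came from the table, and gene positions from GENCODE 44; 35444 of 35606 identifiers matched. The script was tested on simulated data.

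The members and gene lists were chosen with earlier results of these data known, so no list is independent evidence. Genes were named by rule: study genes, the 8 highest and 8 lowest differences and the 6 per direction that moved oppositely or alike, all with a mean of at least 10 in each line, and up to 4 per list with the smallest adjusted p. Exceptions to a list's direction were named after their values were seen, and some are not reported here. Strand use in counting is not given in the sources used here. Exons of many named genes overlap other genes, among them AVIL, ID2, GFOD1, SESN3, NREP, CTNNA2, ANKRD6, PBRM1, POU2F1, TYMS, CCNA2, CDK2 and MCL1. FEN1 overlaps FADS2 and MXD3 overlaps RAB24 on the same strand. Further named genes with overlaps are not listed. Replicate numbers were checked for pairing: deviations of same-numbered libraries correlated at 0.235 in NCI-H1048 and -0.017 in NCI-H929 over 8569 genes, so no block was used. Alternatives changed the pseudocount, filter, scaling, fit and libraries used.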

Additional observations from a re-analysis of the deposited data

Results flagged for a closer look

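For 154 of the 168 named genes the effects of the lines differed by the test of the difference itself (limma, adjusted p below 0.05). The same test passed in 66.0% of all 11949 genes. Many genes were named because of that test, so the count of 154 is not a result about them. It also includes genes that entered through 1 arm, such as TSPOAP1 and MAP1A. Among the study genes, the difference passed for POU2AF1 with 2.12 and MYC with 0.75 (log2, NCI-H1048 minus NCI-H929). IRF4 had a difference of 2.24 but reached the required mean of 1 in NCI-H1048 only through DMSO, so no test is given for it. Among named genes with a mean of at least 10 in each line, the highest differences were those of PLXND1 (4.80), MCM10 (4.69), CDC6 (4.39), CDC45 (4.14), EXO1 (4.12), RRM2 (4.05), UHRF1 (3.96) and PKMYT1 (3.58). Several of them, including PLXND1, MCM10, CDC6 and UHRF1, reached that mean in NCI-H929 only through DMSO. The lowest among genes with that mean were those of TSPOAP1 (-6.12), MAP1A (-5.38), ANKRD6 (-5.37), SESN3 (-4.84), CTNNA2 (-4.20), TRIM36 (-3.94), GALNT12 (-3.81) and AHNAK (-3.603). Several of them, including TSPOAP1, MAP1A, ANKRD6 and CTNNA2, reached a mean of 10 in NCI-H929 only through AU-15330. For TSPOAP1 and MAP1A this held even for the entry mean of 1, and no test is given for them. Genes that rose in NCI-H1048 and fell in NCI-H929 were TUBB2A (2.66), CCDC167 (2.56), ALG5 (2.35), SPDL1 (2.32), PSMB3 (2.25) and GLA (2.03). Those with the opposite pattern, beside TSPOAP1 and CTNNA2, were NREP (-3.56), HDAC9 (-3.40), DUSP4 (-3.25) and AASS (-3.18).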

How the results depend on the processing

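Of 168 named genes, the difference passed for 154, of which 151 passed under every alternative that gave a value and 3 (MT-ND2, MT-ND5 and SYP) were lost under at least 1. No called difference changed sign. Of the 14 that did not pass, 10 passed under at least 1 alternative. Requiring at least 2-fold gave 1510 higher and 1720 lower differences, 77 up and 237 down in NCI-H1048, 1668 up and 1487 down in NCI-H929, 36 up in both, 56 down in both, 4 up in NCI-H1048 and down in NCI-H929, and 51 the opposite. With no filter, 533 genes rose in NCI-H1048 and fell in NCI-H929. In NCI-H929 the effect of KRT8 changed sign with quantile normalization (-0.043), and that of PBRM1, which did not pass as deposited, passed with the opposite sign under total-count scaling (0.21) and quantile normalization (0.20). Some effects that did not pass as deposited, among them those of SMARCA4, SMARCA2 and ENO2, also crossed 0. List medians that changed sign and exceeded the spread between replicates on both sides of 0 were those of epithelial genes (0.35 with a filter at 5, 0.32 with quantile normalization, and -0.62 to 0.087 when leaving out each library), NF-kB targets (-0.13) and Polycomb subunits (-0.17), both with total-count scaling. Medians of the MYC-MAX network, neuroendocrine genes, mitochondrial transcripts, the BCL2 family and lysosome and autophagy genes also crossed 0 under at least 1 alternative. For these the cause was not tested. Leaving out each library in turn, higher differences ranged from 3735 to 4168 and lower from 3270 to 3844, rises in NCI-H1048 from 1097 to 2367 and falls from 1024 to 2194, rises in NCI-H929 from 3927 to 4652 and falls from 4073 to 4649, genes up in both from 541 to 977, down in both from 532 to 1055, up then down from 332 to 954 and the opposite from 296 to 764. By untreated level, classes from the second DMSO replicate gave median differences of -0.98, 0.075 and 0.22, a 4-fold limit -0.76 and 0.36, and entry by the first DMSO library -0.65, 0.11 and 0.21. With the replicate block there were 4194 higher and 3925 lower differences, and the numbers do not establish pairing, since same-numbered libraries correlated at 0.235 and -0.017. Depth limits NCI-H929 most, at 11.96 to 14.05 M reads (M, 1e+06).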
